A study of Mus musculus with 28 samples.

Results

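The 42 genes described here encode the proteins of the nuclear pore complex and the importins, which carry cargo through it. They were taken by symbol from a count table of 24079 rows, and all 42 were present and passed the filter on low counts. The table holds 28 RNA-seq libraries from C57BL/6x129Sv mouse embryonic fibroblasts (MEFs) transformed by RAS and DNP53. Clones 12 and 14 express cyclin D1 with a FLAG and HA tag (Ctag-Cyclin D1), and clones 18 and 25 express it without one (Untagged-Cyclin D1). Both tagged clones were sequenced once under 8 conditions, namely no treatment, leptomycin B at 20 ng/mL overnight, the control siRNA labelled SCR, siRNAs against FLAG and HA, and 3 siRNAs against cyclin D1 labelled Qiagen, Nature and Life. The untagged clones were sequenced once with each of SCR, FLAG and HA. Clone 18 with an added mCherry/PURO or FLAG-mCherry-HA/PURO construct was sequenced 3 times per construct (HA siRNA in 2 replicates, FLAG siRNA in 1). Each clone is 1 line, each arm of the tag comparison holds 2 clones, and p-values measure the spread between libraries, which may be technical. Sample titles also give an n of 3 or 4, with a meaning not given in the sources used here.

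The nuclear pore is a channel through the nuclear envelope. Outer rings built of the Y complex and an inner ring form its scaffold, a membrane ring anchors it, and nucleoporins rich in phenylalanine and glycine fill the channel. Importin alpha adaptors read the classical nuclear localisation signal and bind importin beta (Kpnb1), while the other importins and the transportins bind their cargo themselves. The GTPase RAN releases the cargo inside the nucleus. Leptomycin B binds the exportin XPO1 and stops it from taking cargo out of the nucleus.

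The promoters of 4 members called with leptomycin B are shown for reference: the 3 with the lowest adjusted p among those that fell (Kpna4, Kpna2 and Nup153) and Nup88, the member that rose. Each is the 250 bases before the transcript start in RefSeq, build GRCm38.p6 (the assembly of mm10), read 5′ to 3′ along the gene. Capitals mark the CCAAT box (CCAAT) and the GC box (GGGCGG) on either strand, so ATTGG and CCGCCC are also in capitals.
Kpna4, chr3:69127093-69127342, minus strand: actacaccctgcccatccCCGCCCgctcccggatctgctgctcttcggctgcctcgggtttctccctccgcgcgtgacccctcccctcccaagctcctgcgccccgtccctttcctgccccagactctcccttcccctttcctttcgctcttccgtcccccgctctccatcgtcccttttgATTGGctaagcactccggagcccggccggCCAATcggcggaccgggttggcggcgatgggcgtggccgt
Kpna2, chr11:106999526-106999775, minus strand: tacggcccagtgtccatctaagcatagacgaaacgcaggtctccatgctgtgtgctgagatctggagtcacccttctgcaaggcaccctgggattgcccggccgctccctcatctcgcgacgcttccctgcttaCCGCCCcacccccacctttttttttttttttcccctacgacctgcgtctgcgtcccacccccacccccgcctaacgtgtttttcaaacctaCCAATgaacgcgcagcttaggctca
Nup153, chr13:46727850-46728099, minus strand: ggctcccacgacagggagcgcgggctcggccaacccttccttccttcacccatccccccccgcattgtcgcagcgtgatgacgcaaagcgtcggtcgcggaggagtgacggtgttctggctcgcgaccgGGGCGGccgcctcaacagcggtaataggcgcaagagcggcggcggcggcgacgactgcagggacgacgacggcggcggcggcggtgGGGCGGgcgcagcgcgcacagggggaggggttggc
Nup88, chr11:70969974-70970223, minus strand: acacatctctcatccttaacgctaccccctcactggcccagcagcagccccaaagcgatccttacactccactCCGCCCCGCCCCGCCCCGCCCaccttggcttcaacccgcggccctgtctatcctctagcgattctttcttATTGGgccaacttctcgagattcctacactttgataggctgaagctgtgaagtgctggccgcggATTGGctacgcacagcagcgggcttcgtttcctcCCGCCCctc
CCAAT occurred 2 times in the Kpna4 window, 1 time in Kpna2, 0 times in Nup153 and 2 times in Nup88. GGGCGG occurred 1, 1, 2 and 5 times in the same order, and neighbouring matches in Nup88 share bases. Among 32851 promoter windows of this length, 33.8% held CCAAT and 32.7% held GGGCGG. Of the 35 members with an entry, 16 had at least 1 window with CCAAT and 21 at least 1 with GGGCGG. These members had 42 windows, so some count more than 1 window. The member counts are per gene and the shares above per window, and they cannot be compared directly. These are matches of letters, and binding was not measured.

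Library totals were 26558256 to 81512769 counts, and the 42 members together took 0.603% to 0.953% of them. Counts were scaled to CPM, the share of a library's counts scaled to a common total, with TMM size factors. The lowest count of any member was 11, for Nup210. SCR clone 12 was the deepest library but detected the fewest genes (14132), and it enters every SCR comparison of the tagged clones. Counts of Rn45s, the ribosomal RNA precursor, exceeded 2% in 4 libraries (HA clone 12, Nature clone 14, Life clone 14 and an mCherry HA library). Ccnd1, the targeted gene, stood at 1128 and 1287 CPM with SCR in clones 12 and 14, at 131 to 222 CPM with the tag siRNAs and at 50.1 to 329 CPM with the cyclin D1 siRNAs. In the untagged clones it stayed between 1014 and 1329 CPM. In clones 12, 18 and 25 all 9 fibroblast markers had a median over 1 CPM. Clone 14, which is in every comparison of the tagged clones, stood apart in some fibroblast markers and went against its label in part. Thy1 was at 0 in 6 of its 8 libraries and at most 0.0494 CPM. Col1a1 lay between 0.292 and 0.967 CPM (343 to 710 in clone 12) and Col1a2 between 0.201 and 2.24 CPM (1771 to 2505 in clone 12). Vim was at 4203 to 7919 CPM, Fn1 at 191 to 757 CPM, Sparc at 153 to 344 CPM and Col3a1 at 93.1 to 241 CPM. Of the 9 fibroblast markers, 7 had a median over 1 CPM in clone 14. The epithelial markers of clone 14 summed to 970 to 1958 CPM, beside 87.4 to 229 CPM in clone 12, 608 to 1135 CPM in clone 18 and 371 to 615 CPM in clone 25. Most of the sum was Krt18, at 929 to 1919 CPM in clone 14, 86.5 to 228 CPM in clone 12 and 600 to 1123 CPM in clone 18. Cdh1 was at 21.7 to 40.0 CPM in clone 14 and 0.227 to 1.16 CPM in clone 12. Epcam was at most 0.173 CPM in clone 14 and 0.867 CPM in clone 12. In clone 14, Krt14 and Krt5 were at most 0.0366 and 0.0381 CPM. The macrophage markers summed to 12.0 to 118 CPM over all libraries, with Cd14 up to 115 CPM, Csf1r up to 2.55 CPM and Ptprc up to 0.459 CPM. The 5 endothelial markers summed to at most 1.95 CPM, with Cldn5 at 0 in every library. The 5 neural markers summed to 44.9 to 155 CPM, and 4 of them had a median over 1 CPM. Sox2 was at 41.1 to 97.9 CPM in clone 14 and Nefl at 27.7 to 57.1 CPM in clone 12. Rbfox3 was at 0 in every library of both clones. Their part in the results was not tested.

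Compared per transcript length (RPKM, the CPM divided by the exon length in kilobases), Kpna2 was the most abundant member with a median of 240 RPKM (92.3 to 327 over the 28 libraries), and Kpnb1 followed at 200.0 RPKM (163 to 281). Their ranges overlap. Ipo5, an importin for ribosomal proteins and histones, was the third at 57.8 RPKM (43.9 to 73.2), wholly below Kpnb1. At the other end Ipo8 had a median of 3.93 RPKM and Nup210, a membrane glycoprotein of the pore, 0.141 RPKM. The steadiest member was Nup133 of the Y complex, whose level differed 1.35-fold between its lowest and highest library, and the least steady was Nup210 at 76.2-fold.

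The comparison of leptomycin B with untreated cells asks what the pore and import genes do when XPO1 is blocked. Kpna4, Kpna2, Nup153, Nup210 and Nup35 fell and Nup88 rose, with 1 library per clone in each group. These are 5 of 42 members lower and 1 higher at an adjusted p under 0.05 (edgeR quasi-likelihood test), where 5.7% of the 15099 genes tested were lower and 4.29% higher. With calls in either direction the members' share was 14.3% beside 9.99% of all genes. That excess depended on weakly expressed genes in the background. When genes averaging below 1 CPM were dropped, 6 of 42 members were called, beside 1663 of 11773 genes. The members' share was then about that of the genes tested. In the main fit the log2 fold change was negative for 36 of 42 members, beside 46.8% of all genes. Its median was -0.19, beside 0.03 over all genes. The untreated libraries of clones 12 and 14 held the highest member shares of all 28 libraries, at 0.953% and 0.944% of counts. The shares were 0.782% and 0.798% with leptomycin B, and 0.870% and 0.795% with SCR. In 30 members the leptomycin B library was lower in both clones, in 5 it was higher in both, and in 7 the clones differed in sign. This count was not made over all genes, so it has no share to be set against. The median member log2 fold change was -0.20 in clone 12 and -0.17 in clone 14. When clone was not fitted as a block, 0 of 42 members passed (48 genes in all). When any 1 of the 4 libraries was left out, which leaves 1 in a group, fewer members passed, and fewer of all genes as well.

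**Figure D1:**
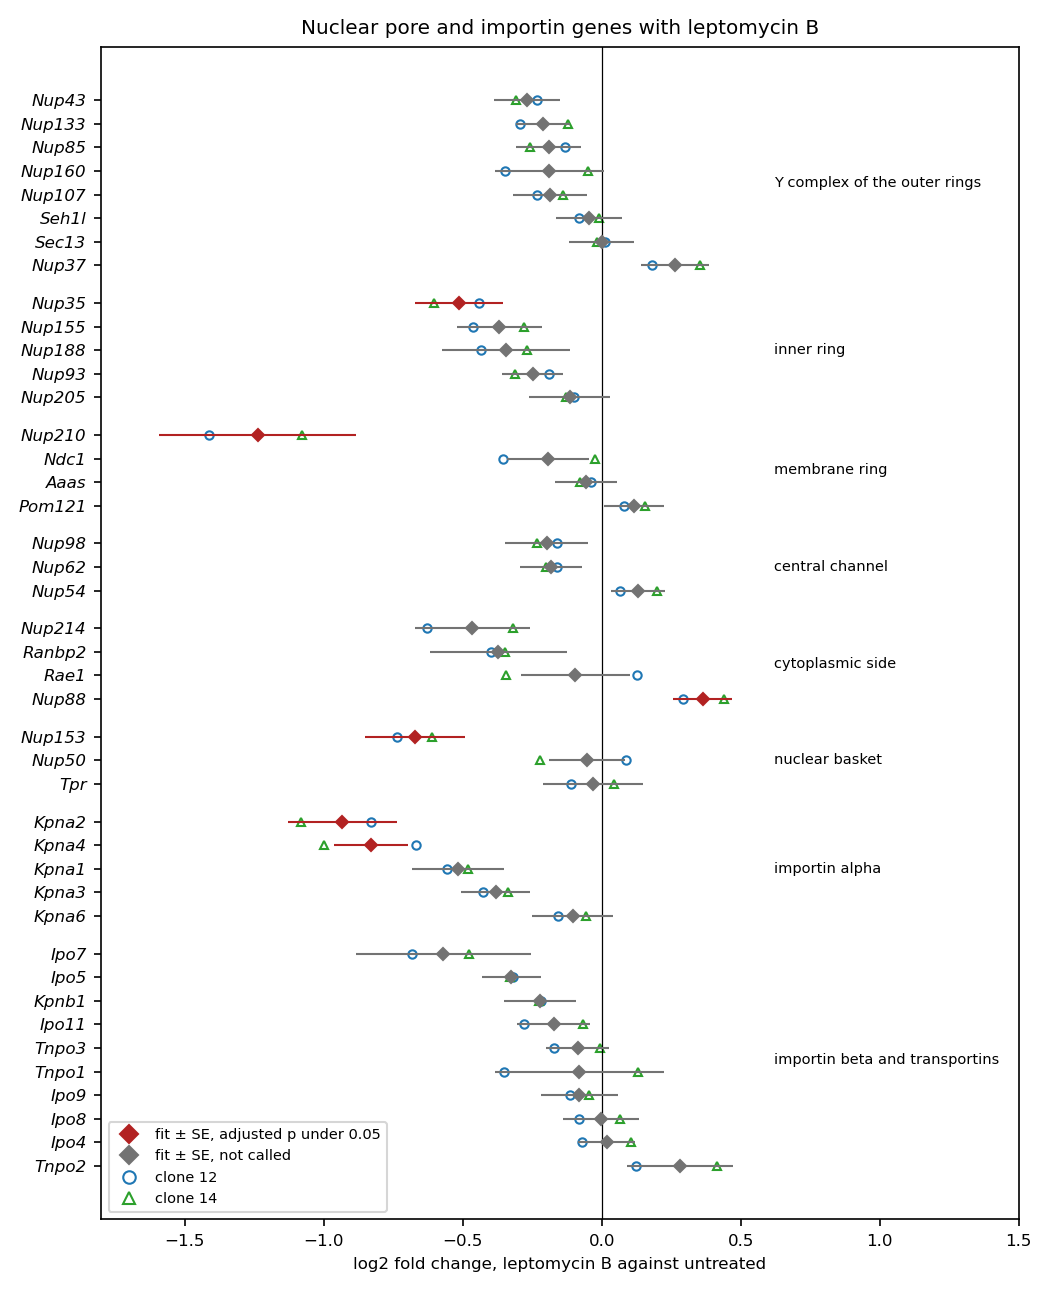
Log2 fold change of all 42 members with leptomycin B against untreated cells, grouped by role; diamonds are the fit with its standard error (red where the adjusted p is under 0.05), circles clone 12 and triangles clone 14. Most diamonds lie left of 0 (36 of 42), and the importin alpha genes Kpna2 and Kpna4 lie at -0.93 and -0.83.

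The importin alpha genes held 2 of the 5 lower calls. Kpna4 stood at 214 CPM in untreated clone 12 and 198 in untreated clone 14, and at 135 and 98.9 CPM with leptomycin B. Both treated libraries lay below both untreated ones, a log2 fold change of -0.83 ± 0.13 (SE), or 56.3% of the untreated level (adjusted p = 0.000676). It was called in each of the 4 fits that left out a library (adjusted p 0.00354 to 0.0162). Kpna2, the most abundant importin alpha here and one known to be high in dividing cells, went from 596 and 562 CPM to 335 and 265 CPM. The groups did not overlap, and the change was -0.93 ± 0.20 (SE, adjusted p = 0.00533). Without untreated clone 12, or without leptomycin B clone 14, it was not called (adjusted p up to 0.122).

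Kpna1 went from 76.2 and 67.4 CPM to 51.8 and 48.3 CPM, and Kpna3 from 189 and 202 CPM to 141 and 160 CPM. Their treated libraries also lay below the untreated ones, but neither passed the threshold: Kpna1 was at -0.52 ± 0.17 (SE, adjusted p = 0.0565) and Kpna3 at -0.38 ± 0.12 (SE, adjusted p = 0.0581). Kpna6 was at -0.10 ± 0.15 (SE, adjusted p = 0.719). All 5 importin alpha estimates were negative, with a median log2 fold change of -0.52.

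**Figure D2:**
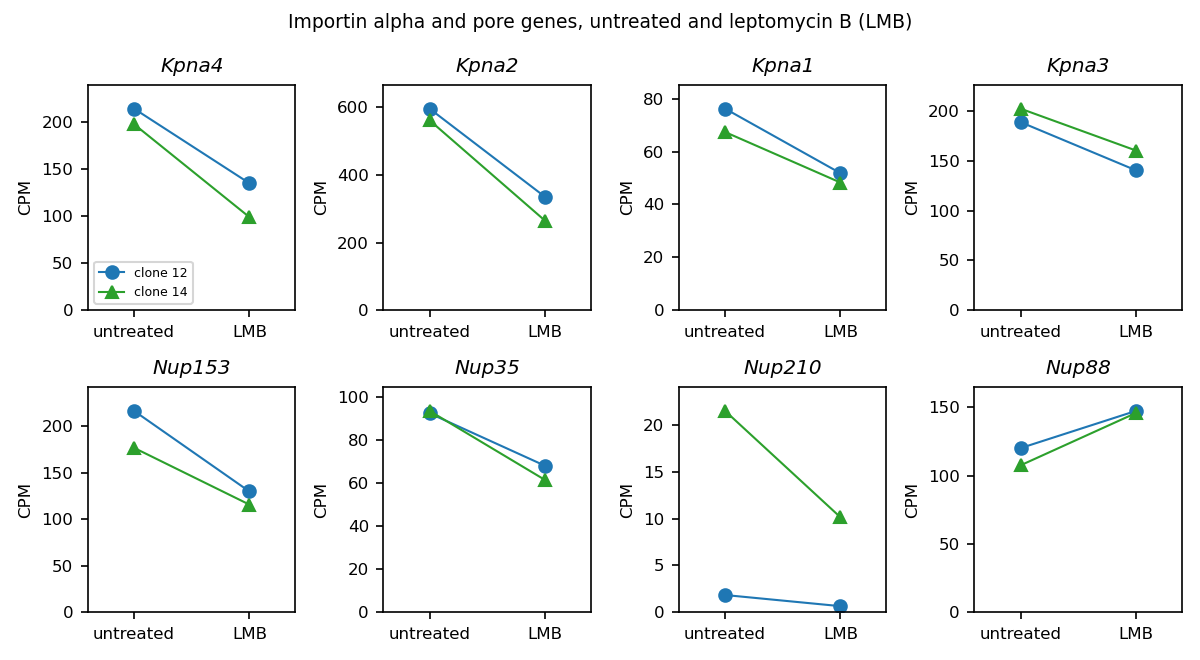
Level in CPM of 4 importin alpha genes (top) and of the 4 pore genes called with leptomycin B (bottom), untreated and treated, with 1 point per library and a line joining each clone. In Kpna4, Kpna2, Kpna1, Kpna3, Nup153 and Nup35 both treated libraries lie below both untreated ones; Nup88 lies above, and Nup210 falls within each clone from very different starting levels.

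Among importin beta and the transportins, 0 of 10 members were called (1 at an unadjusted p under 0.05, and 8 of 10 estimates negative). Ipo5 came nearest at -0.32 ± 0.11 (SE, adjusted p = 0.0605). Ipo7, which imports ribosomal proteins, was at -0.57 with a wide error of 0.31 (SE, adjusted p = 0.279). Kpnb1 was at -0.22 ± 0.13 (SE, adjusted p = 0.312) and Tnpo3, the importer of splicing factors of the SR family, at -0.09 ± 0.11 (SE).

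In the nuclear basket, which faces the chromatin, Nup153 went from 217 and 177 CPM to 130 and 116 CPM. The treated libraries lay below the untreated ones, at -0.67 ± 0.18 (SE, adjusted p = 0.0241). Its partners Tpr and Nup50 were at -0.03 and -0.05. On the cytoplasmic side Nup88, which with Nup214 binds XPO1 at the pore, rose from 120 and 108 CPM to 147 and 146 CPM, or 0.36 ± 0.11 (SE, adjusted p = 0.0391). Nup214 itself was at -0.46 ± 0.21 (SE, adjusted p = 0.173), and Ranbp2 of the cytoplasmic filaments at -0.37 ± 0.24 (SE).

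Within the scaffold, Nup35 of the inner ring went from 92.6 and 93.7 CPM to 68.2 and 61.6 CPM, at -0.51 ± 0.16 (SE, adjusted p = 0.0472). All 5 inner ring genes had negative estimates, from -0.51 for Nup35 to -0.11 for Nup205. Nup210 of the membrane ring stood at 1.85 CPM in untreated clone 12 and 21.5 in untreated clone 14, and at 0.67 and 10.1 CPM with leptomycin B. The treated library was lower within each clone, at -1.24 ± 0.35 (SE, adjusted p = 0.0342), but the groups overlap across clones, and clone 12 gave 114 counts untreated and 25 treated. The Y complex had 0 of 8 members called and the central channel 0 of 3 (3 and 0 at an unadjusted p under 0.05), and Nup37 of the Y complex was at 0.26 while Nup43 was at -0.27. Nup153, Nup88 and Nup210 lost their call in each of the 4 fits without 1 library, and Nup35 without untreated clone 12 or leptomycin B clone 14.

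Exons of Nup35 share 131 bases with Dusp19 on the same strand, and exons of Nup88 share 48 bases with Rabep1 on the opposite strand. In all, 14 members share exon bases with another gene (GENCODE M21), and the strand setting of the counting was not given in the sources used here; reads there may be split or shared. Levels are shares of the RNA in a culture: fewer cells of a type and less RNA per cell cannot be told apart.

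Around these genes, Xpo1, the target of leptomycin B, rose from 701 and 635 CPM to 1238 and 1193 CPM, or 0.87 ± 0.15 (SE, adjusted p = 0.00135), and passed in each fit without 1 library. Of 9 other pore and importin genes tested 0 rose and 2 fell, Nupl2 (-1.12, adjusted p = 0.000365) and Ipo13 (-0.42, adjusted p = 0.0253). Of 14 exportins and RAN cycle genes Xpo1 rose and Rcc1, the nucleotide exchange factor of RAN, fell (-0.45, adjusted p = 0.033). Of 12 lamina and envelope genes Sun2 (1.45, adjusted p = 3.64e-06) and emerin (Emd, 0.38, adjusted p = 0.0189) rose and Lemd3 fell (-0.77, adjusted p = 0.00799). The 9 fibroblast markers all had positive estimates with leptomycin B, 2 of them called (Col3a1 and Sparc), and summed to 4970 to 9770 CPM untreated and 6120 to 11200 CPM treated. The macrophage list summed to 16.1 to 38 CPM untreated and 28.9 to 60.3 CPM treated, with Cd68 called. The epithelial list summed to 122 to 970 and 128 to 1180 CPM, and the neural list to 83.3 to 87.4 and 65.6 to 81 CPM. Their part in the pore results was not tested.

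The siRNA comparisons ask which of these genes change when cyclin D1 is lowered. Against SCR, 15 of 42 members were called with at least 1 of the 5 targeting siRNAs, all of them lower (35.7%, beside 12.3% of all genes called lower and 20% called in either direction with at least 1). Of the 15, 13 were called with 1 siRNA only (86.7%, beside 83.3% of all genes called lower with at least 1). Just Nup54 and Ipo11 were called with more than 1, both with Nature and Life. FLAG siRNA called 0 members (5 at an unadjusted p under 0.05, 0 with DESeq2; 2.17% of all genes called), HA siRNA 1 (2.15% of all genes were lower), Qiagen 2 (2.53% lower), Nature 6 (4.8% lower) and Life 8 (4.32% lower). Without 1 library these counts moved for Nature, Life and Qiagen, and so did the counts over all genes. The Nature count was lowest without Nature clone 12 or SCR clone 14 and highest without Nature clone 14. The Life count was lowest without SCR clone 12 or Life clone 14, and the Qiagen count without SCR clone 12 or Qiagen clone 12. Such fits leave 1 library in a group. These 5 comparisons share the same 2 SCR libraries. Each siRNA was therefore also set against the mean of the other 4 targeting siRNAs, a comparison added after the data were seen that uses no SCR library. There FLAG siRNA called 0 members (6 at an unadjusted p under 0.05, 0 with DESeq2; 1.32% of all genes), HA 5 (4.86%), Qiagen 6 (13.7%), Nature 7 (9.93%) and Life 5 (14.2%). Calls in the same direction in both comparisons numbered 1 for HA (2.38% of members, beside 1.56% of all genes), 2 for Qiagen (4.76% beside 3.19%), 5 for Nature (11.9% beside 4.51%) and 4 for Life (9.52% beside 5.09%).

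**Figure D3:**
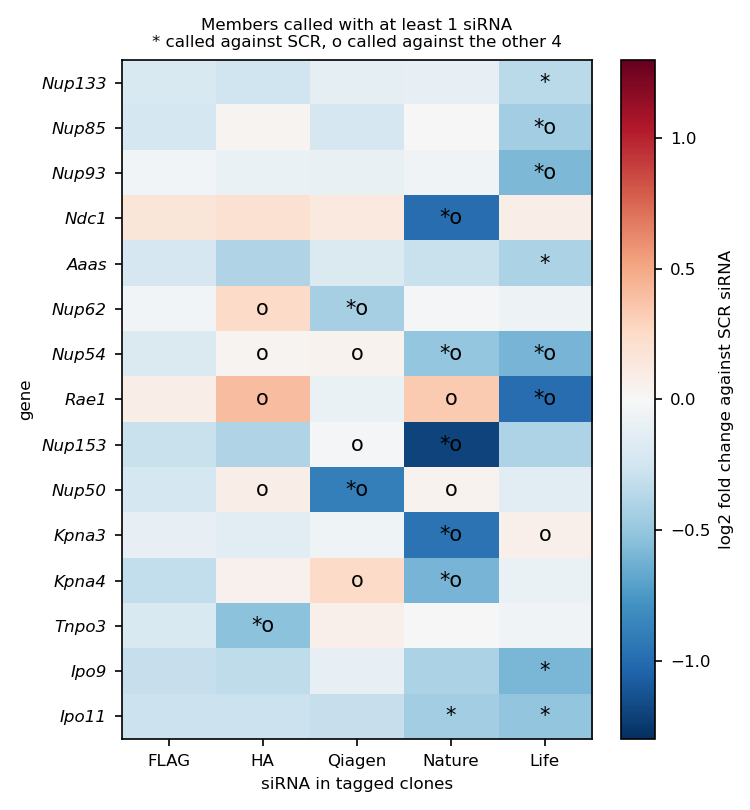
Log2 fold change against SCR siRNA in the tagged clones (colour, blue for lower) for the 15 members called with at least 1 of the 5 targeting siRNAs; a star marks a call against SCR and a circle a call against the other 4 targeting siRNAs. The darkest cells, Ndc1, Kpna3 and Nup153 with Nature, Rae1 with Life and Nup50 with Qiagen, each stand in a single column.

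With the Nature siRNA, Kpna3, Ndc1 and Nup153 fell below every other siRNA library of the tagged clones. Kpna3 stood at 89.5 and 102 CPM with Nature in clones 12 and 14, and at 176 and 195 CPM with SCR. The other 10 siRNA libraries of the tagged clones lay between 149 and 201 CPM, all above the Nature pair. The log2 fold change was -0.96 ± 0.12 (SE, adjusted p = 7.69e-05) against SCR and -0.89 ± 0.10 (SE, adjusted p = 1.68e-05) against the other 4 siRNAs. Ndc1, a transmembrane protein that anchors the pore, stood at 30.3 and 26.1 CPM with Nature and at 56.0 to 71.8 CPM in the other 10 libraries. It fell by 0.99 on the log2 scale (SE 0.15, adjusted p = 3.26e-04) against SCR and by 1.14 (SE 0.13, adjusted p = 1.11e-05) against the other 4. Nup153 stood at 72.1 and 74.0 CPM with Nature, at 193 and 147 CPM with SCR, and at 107 to 208 CPM in all other siRNA libraries of these clones. Its change was -1.20 ± 0.18 (SE, adjusted p = 3.51e-04) against SCR. Against the other 4 it was -0.93 ± 0.15 (SE, adjusted p = 5.34e-04). The 3 calls against SCR held in each fit without 1 of the 4 libraries, and of those against the other 4 Nup153 was lost without Nature clone 12 (adjusted p = 0.0593).

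Kpna4 fell as well with Nature, from 177 and 184 CPM with SCR to 131 and 108 CPM, at -0.61 ± 0.13 (SE, adjusted p = 0.00736), and lost the call without Nature clone 12 or SCR clone 14 (adjusted p up to 0.083). Against the other 4 it was -0.58 ± 0.11 (SE, adjusted p = 0.00182), lost without Nature clone 12 (adjusted p = 0.0518). Beside this, Kpna4 was at 135 and 98.9 CPM with leptomycin B. Kpna2, in contrast, was called with none of the 5 targeting siRNAs, although its estimate was negative with all 5. In both tagged clones its leptomycin B library was the lowest of 8, at 335 CPM beside 437 CPM for the next in clone 12 and at 265 CPM beside 562 CPM in clone 14.

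Nup54, which lines the central channel with Nup62, fell with both Nature and Life. It stood at 87.4 and 79.5 CPM with SCR, at 65.6 and 52.8 CPM with Nature and at 58.2 and 51.6 CPM with Life, while Qiagen gave 88.8 and 82.8 CPM. The changes against SCR were -0.50 ± 0.10 (SE, adjusted p = 0.00337) with Nature and -0.61 ± 0.10 (SE, adjusted p = 0.000757) with Life, and both held without any 1 library. Against the other 4 siRNAs Nup54 was lower with Nature (-0.32) and Life (-0.45) and higher with Qiagen (0.36) and HA (0.35), each called. The Life call held in all 10 fits without 1 library, while those of Nature and HA were lost without either of their own libraries and that of Qiagen without Qiagen clone 14. Ipo11, an importin for ubiquitin-conjugating enzymes, went from 125 and 90.3 CPM with SCR to 82.6 and 73.2 CPM with Nature and 89.6 and 61.3 CPM with Life. These were -0.45 (adjusted p = 0.0407) and -0.52 (adjusted p = 0.0205). It was not called against the other siRNAs, and both calls were lost without SCR clone 12, that of Nature also without Nature clone 12 or SCR clone 14, and that of Life without Life clone 14.

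With the Life siRNA, Rae1, an mRNA export factor bound to Nup98, stood at 45.7 and 41.1 CPM, beside 70.5 and 105 CPM with SCR. The other 10 siRNA libraries lay between 69.4 and 129 CPM, above both. The change was -0.995 ± 0.20 (SE, adjusted p = 0.00415) against SCR, lost without SCR clone 14 or Life clone 14 (adjusted p up to 0.0964). Against the other 4 siRNAs it was -1.18 ± 0.17 (SE, adjusted p = 1.82e-04) and held in each of 10 fits without 1 library. Nup93, which links the inner ring to the channel, stood at 84.3 and 82.2 CPM with Life and at 113 to 131 CPM in the other 10 libraries. It was -0.58 ± 0.11 (SE, adjusted p = 0.0028) against SCR, lost without SCR clone 12 (adjusted p = 0.0624), and -0.52 (adjusted p = 9.33e-04) against the other 4, lost there without Life clone 14 (adjusted p = 0.0503).

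Nup85 of the Y complex went from 172 and 153 CPM with SCR to 118 and 120 CPM with Life, at -0.45 (adjusted p = 0.0246), and was also lower against the other 4 (-0.34, adjusted p = 0.0232; lost without either Life library). Ipo9, an importer of histones, went from 322 and 215 CPM to 212 and 144 CPM (-0.59, adjusted p = 0.0125) and was not called against the other 4. Aaas and Nup133 were at -0.41 (adjusted p = 0.0324) and -0.35 (adjusted p = 0.0332) against SCR, and neither was called against the other 4. Nup85, Aaas and Nup133 lost the SCR call in each fit without 1 library, and Ipo9 without SCR clone 12 or Life clone 14. Without the 4 libraries over 2% Rn45s, which leaves Life and Nature with 1 library each, 2 members were called with Life (4.76% beside 2.76% of all genes) and 10 with Nature (23.8% beside 12.4%).

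The Qiagen siRNA lowered Nup50, a basket protein that helps release cargo from importin alpha. It stood at 85.6 and 66.5 CPM with Qiagen, at 155 and 126 CPM with SCR, and at 116 CPM or more in all other siRNA libraries of the tagged clones. The change was -0.89 ± 0.14 (SE, adjusted p = 6.23e-04) against SCR and -0.83 ± 0.12 (SE, adjusted p = 1.59e-04) against the other 4, both held without any 1 library. Nup62 stood at 70.5 and 85.8 CPM with Qiagen and at 91.6 to 133 CPM in the other 10. Its change was -0.43 (adjusted p = 0.0289) against SCR, lost without SCR clone 12 or Qiagen clone 12, and -0.47 (adjusted p = 0.00274) against the other 4, lost without Qiagen clone 12. Exons of Nup62 share 97 bases with Il4i1 on the same strand and 82 with Atf5 on the other. Against SCR, Qiagen called no member higher. The mean of the other 4 holds Nature, which lowered Nup153, Kpna4 and Nup54, and Life, which lowered Nup54. Higher with Qiagen than with that mean were Nup153 (0.55), Kpna4 (0.49), Nup54 (0.36) and Ipo5 (0.29). Of these, Nup153 and Kpna4 lost the call without Qiagen clone 12, whose levels were 208 and 246 CPM, and Ipo5 lost it in 6 of 10 fits without 1 library.

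A mean of 4 siRNAs also holds the siRNA that lowered a gene, so a member lowered by 1 siRNA can stand higher with the others. Rae1, low with Life, was higher with HA (102 and 129 CPM; 0.57, adjusted p = 0.0354) and with Nature (121 and 96.9 CPM; 0.49, adjusted p = 0.0475) than with the respective other 4. Nup50, low with Qiagen, was higher with HA (147 and 148 CPM; 0.39, adjusted p = 0.042) and with Nature (150.4 and 139 CPM; 0.35, adjusted p = 0.046). Nup62, also low with Qiagen, was higher with HA (118 and 133 CPM; 0.39, adjusted p = 0.0127), and Kpna3, low with Nature, was higher with Life (187 and 201 CPM; 0.38, adjusted p = 0.012). None of these 6 was called higher against SCR. The Nup50 calls were lost in 9 (HA) and 8 (Nature) of 10 fits without 1 library and the Rae1 calls in 6 and 7, while Nup62 and Kpna3 lost theirs without either library of the siRNA itself.

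Pooled over the 3 cyclin D1 siRNAs, 4 of 42 members were lower and 0 higher against SCR, where 2.72% of all genes were lower. They were Nup54 (-0.35, adjusted p = 0.0127), Ipo11 (-0.42, adjusted p = 0.0242), Nup210 (-1.07, adjusted p = 0.0307) and Nup153 (-0.54, adjusted p = 0.0333). Nup210 stood at 1.24 CPM with SCR and at 0.28, 0.36 and 0.57 CPM with Qiagen, Nature and Life in clone 12, and at 13.0 CPM and 8.83, 8.57 and 6.10 CPM in clone 14. Nup153 with Qiagen stood at 208 and 133 CPM, above its SCR library in clone 12 and below it in clone 14. All 4 calls were lost without SCR clone 12 (0 members called). Nup54, Nup210 and Nup153 also lost theirs without SCR clone 14, Nup210 and Nup153 without Nature clone 12 or Life clone 14, and Nup153 without Qiagen clone 14. With untreated libraries as the control in place of SCR, 21 members were called (2 higher and 19 lower, 50% beside 23.7% of all genes). SCR against untreated called 2 members, both lower (3.61% of all genes were lower): Nup205 of the inner ring and Ipo8. Nup205 went from 379 and 342 CPM untreated to 286 and 211 CPM with SCR (-0.55, adjusted p = 0.0373), and Ipo8 from 100.4 and 104 CPM to 74.1 and 71.2 CPM (-0.49, adjusted p = 0.0456). Each lost the call in every fit without 1 library. In clone 12 the labels mark the untreated and leptomycin B libraries with a day that the SCR library lacks, so treatment and day cannot be told apart there.

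The tag siRNAs bear on 1 member in particular, Tnpo3. With SCR it stood at 165, 174, 178 and 186 CPM in clones 12, 14, 25 and 18. With HA siRNA it stood at 117, 118, 120 and 125 CPM in the same order, in tagged and untagged clones alike below every SCR library. With FLAG siRNA it stood at 147, 150, 152 and 127 CPM. In the tagged clones the change with HA was -0.53 ± 0.11 (SE, adjusted p = 0.0113) against SCR and -0.49 ± 0.09 (SE, adjusted p = 0.00425) against the other 4 siRNAs. The first was lost without SCR clone 12, HA clone 12 or HA clone 14 (adjusted p up to 0.157) and the second without either HA library (adjusted p up to 0.242). Pooled over FLAG and HA, Tnpo3 was the member called in the tagged clones (-0.36 ± 0.10 (SE), adjusted p = 0.042; 1.83% of all genes lower) and again in the untagged clones (-0.47 ± 0.10 (SE), adjusted p = 0.00857; 1.47% of all genes lower), where Ccnd1 did not pass (adjusted p = 0.873). The pooled call was lost in every fit without 1 library in the tagged clones and in 3 of 6 in the untagged ones (without SCR clone 25, SCR clone 18 or FLAG clone 18).

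The test of the difference between the responses of tagged and untagged clones called 0 of 42 members and 1 of 15099 genes (0.00662%), with 0 members at an unadjusted p under 0.05 and 0 with DESeq2. In clone 18 with mCherry constructs, which had no SCR library, Tnpo3 was at 103 to 127 CPM in the 4 HA libraries and at 145 and 141 CPM in the FLAG libraries. HA clone 12 and 1 of these HA libraries are among those with over 2% Rn45s. Exons of Tnpo3 share 411 bases with Irf5 on the opposite strand.

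**Figure D4:**
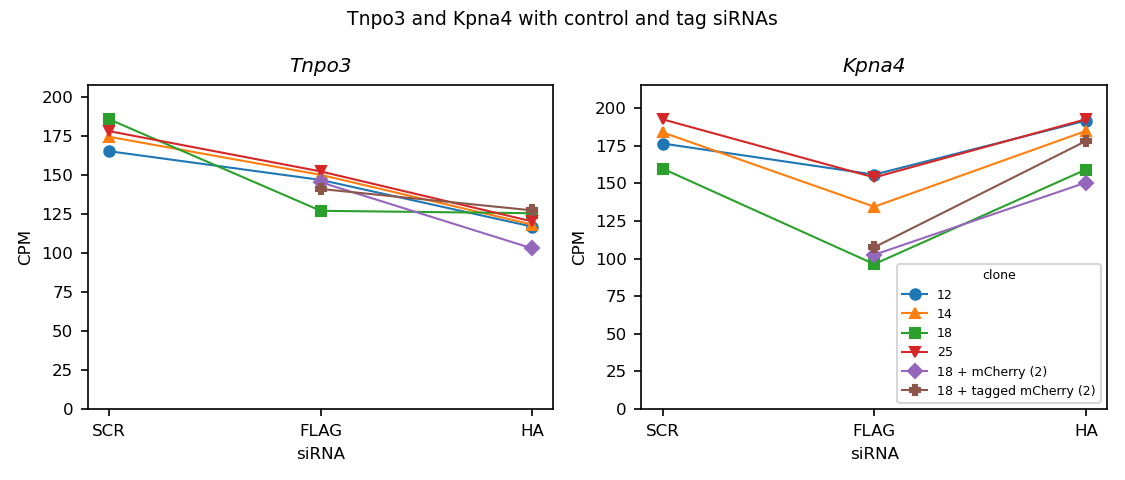
Level in CPM of Tnpo3 and Kpna4 with SCR, FLAG and HA siRNA, 1 point per library and 1 line per clone or mCherry line. Tnpo3 is lower with HA than with FLAG on all 6 lines, though hardly in clone 18 (125 and 127 CPM), and was not called in the direct comparison of HA with FLAG. Kpna4 is higher with HA than with FLAG on all 6.

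HA and FLAG siRNA were also compared directly over the 4 clones, in a comparison added after the data were seen. Kpna4 (0.45 ± 0.09 (SE), adjusted p = 0.00903) and Pom121, a membrane protein of the pore (0.32 ± 0.08 (SE), adjusted p = 0.0217), were higher with HA, 2 of 42 members where 1.79% of all genes were higher. Lower with HA were 0 members, so Tnpo3 was not called here. Kpna4 stood at 156, 135, 154 and 96.4 CPM with FLAG in clones 12, 14, 25 and 18, and at 192, 185, 193 and 159 CPM with HA. The HA libraries all lay above the FLAG libraries. SCR gave 177, 184, 193 and 160 CPM, also above every FLAG library. Pom121 stood at 66.9, 67.1, 89.2 and 93.2 CPM with FLAG and at 86.7, 86.6, 95.8 and 127 CPM with HA, higher within each clone but overlapping across clones. In the mCherry lines, which the test did not use, the matched pairs gave Kpna4 at 103 and 108 CPM with FLAG and 151 and 178 CPM with HA, and Pom121 at 89.5 and 91.2 CPM with FLAG and 99.1 and 111 CPM with HA. Kpna4 lost the call in 5 of 8 fits without 1 library (without FLAG clone 12, FLAG clone 14, HA clone 14, FLAG clone 18 or HA clone 18) and Pom121 in 6 of 8 (without FLAG or HA of clone 12, 14 or 18).

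The members also differed between clones. Clone 14 against clone 12 called 20 of 42 members (6 higher and 14 lower, 47.6%), where 62.6% of all genes were called (29.2% higher and 33.4% lower). Clone 25 against clone 18 called 18 (13 higher and 5 lower, 42.9%), where 47.6% of all genes were called (22.9% higher and 24.6% lower). For clone 25 against 18 the members' share lay near that of all genes, and its side depended on the libraries: without HA of clone 25 or 18 it was 54.8% (23 members) beside 45.5% of all genes, and without FLAG of either clone 21.4% (9 members) beside 32.9% and 32.8%. With SCR of either clone left out it was 23.8% (10 members) beside 34.1% and 33.9%. Some of the marker genes given above separate clone 14 from clone 12 as well (among them Col1a1, Col1a2, Thy1, Cdh1 and Krt18 do not overlap between the clones). Some markers also separate clone 18 from clone 25. Vim was at 7272 to 7709 beside 2768 to 3775 CPM, and Thy1 at 49.7 to 68.2 beside 187 to 218 CPM. Sox2 of the neural list was at 68.2 to 86.8 beside 0 to 0.109 CPM. Krt18 overlapped, at 600 to 1123 beside 368 to 612 CPM. The part of the markers in the clone differences was not tested. Nup210 differed most. It lay between 0.28 and 1.85 CPM in the 8 libraries of clone 12 and between 6.10 and 21.5 CPM in the 8 of clone 14, with no overlap (median 0.844 and 10.1 CPM; 13.2-fold, log2 fold change 3.72 ± 0.20 (SE), adjusted p = 6.89e-12). In clone 18 it lay between 0.84 and 1.45 CPM, and in clone 25 between 2.39 and 3.92 CPM, again without overlap (1.33 ± 0.30 (SE), adjusted p = 0.00167).

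**Figure D5:**
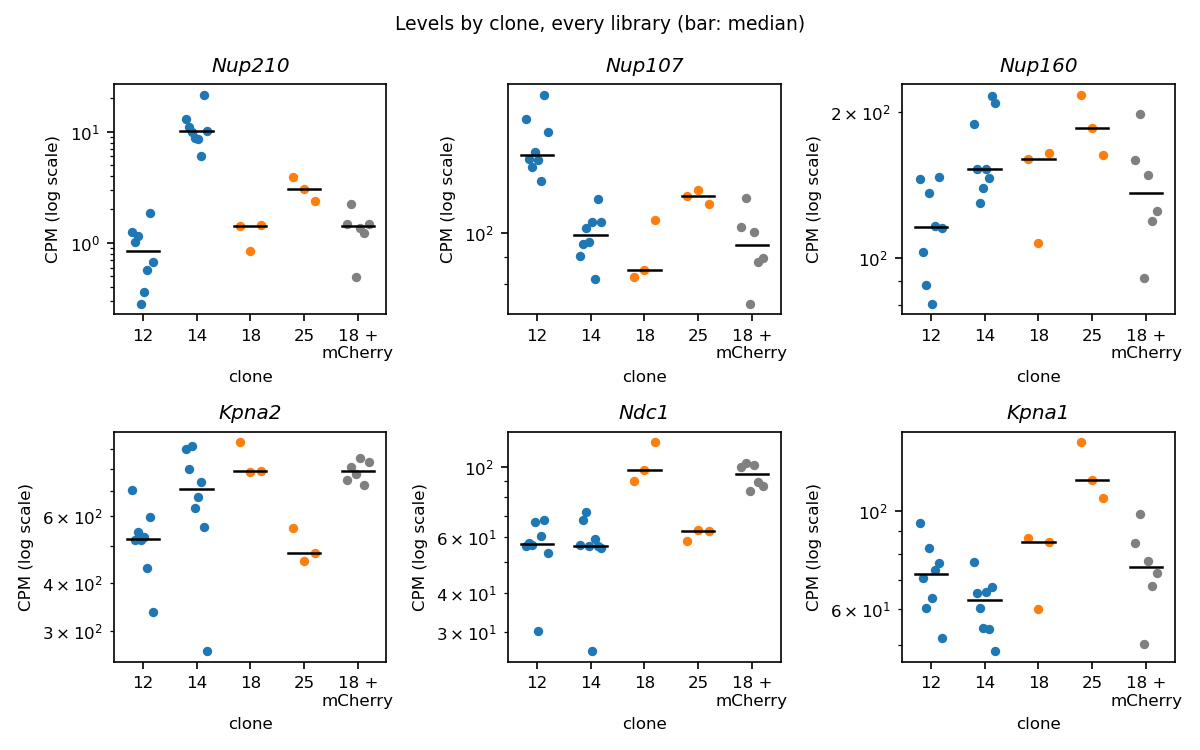
Level in CPM on a log scale of 6 members in every library, by clone (blue tagged, orange untagged, grey clone 18 with mCherry constructs), with a bar at the median. Nup210 and Nup107 separate clones 12 and 14 in all 8 conditions, and Kpna2, Ndc1 and Kpna1 separate clones 18 and 25.

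In the Y complex, Nup107 and Nup160 went opposite ways. Nup107 lay between 126 and 182 CPM in clone 12 and between 81.9 and 116 CPM in clone 14, without overlap (-0.57 ± 0.07 (SE), adjusted p = 5.76e-07). Nup160 lay between 80.6 and 147 CPM in clone 12 and between 130 and 216 CPM in clone 14, with some overlap (0.53 ± 0.10 (SE), adjusted p = 1.40e-04). Tnpo1, the importer of HNRNPA1, was lower in clone 14 (-0.48 ± 0.15 (SE), adjusted p = 0.0123). Between the untagged clones Kpna2 was lower in clone 25 (457 to 558 CPM) than in clone 18 (785 to 938 CPM), at -0.75 ± 0.16 (SE, adjusted p = 8.66e-04). Ndc1 was also lower there (58.4 to 63.2 beside 90.4 to 119 CPM; -0.73 ± 0.12 (SE), adjusted p = 7.96e-05). Kpna1 was higher in clone 25 (107 to 143 beside 60.1 to 87.0 CPM; 0.67 ± 0.14 (SE), adjusted p = 5.60e-04). These 8 clone calls held in every fit that left out 1 library. Each clone is 1 line, so such fits cannot show how other lines would differ.

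FLAG-mCherry-HA against mCherry called 0 of 42 members and 0 of 15099 genes (0%; 5 members and 1390 genes at an unadjusted p under 0.05; 0 members and 15 genes with DESeq2). The estimate was positive for 38 of 42 members, with a median of 0.15, where 50.9% of all genes were negative and their median was -0.00265. The 3 pairs were uneven. The members took 0.841% of counts with mCherry and 0.930% with the tagged construct in HA 1, and 0.688% and 0.697% in FLAG 2. In HA 2 they took 0.603%, the lowest of all libraries, and 0.788%. That mCherry HA 2 library also held 2.75% Rn45s. Tagged against untagged clones, compared in the 4 SCR libraries, called 0 members and 0 of 13233 genes (0%; 0 members and 442 genes at an unadjusted p under 0.05; 0 members and 177 genes with DESeq2), with a member median of 0.02.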

How the data were processed

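Cells were transfected with siRNA (RNAiMAX) or given leptomycin B in the evening and harvested the next morning, and stranded poly(A) libraries were read from 1 end, per the labels' protocols. HTSeq 0.6.1p1, Bowtie2 2.2.3, TopHat2 2.0.13, FastQC, CASAVA 1.8.2 and build mm10 are named in the submitters' processing notes; annotation and strand setting were not given in the sources used here. The values are raw counts per gene, deposited as a single table. Its 22 rows lacking a gene ID held at most 0.0137% of any library and were filtered like the rest. The sample number in the labels identified each column.

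Counts were analysed with edgeR 4.0.16 in R 4.3.3: filterByExpr by group, TMM, and one quasi-likelihood fit (robust) over the 28 libraries, with 15 groups (17 coefficients, 11 residual degrees of freedom, 15099 genes, biological coefficient of variation 14.6%). The block was the clone (for mCherry lines, the matched pair), as both arms hold the same clones; libraries of a clone deviated together (lowest correlation 0.834 over 28 pairs of treatments of the tagged clones and 0.862 over 3 of the untagged ones; 0.934 for leptomycin B and untreated). Tagged and untagged clones were compared in the 4 SCR libraries without a block. Calls are at a Benjamini-Hochberg adjusted p under 0.05 over all genes tested. The standard error is the size of a log2 fold change over the root of its F statistic. CPM used TMM factors, and RPKM the exon length of each gene in GENCODE M21. The fit was tested on simulated data.

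The members, the 8 roles, the related and marker lists and the tests were chosen with earlier results of these data known. Of 21 comparisons 6 were added after the data were seen. Full values are given for members called with leptomycin B, for up to 6 called members with the smallest p in other comparisons and for the 4 largest clone differences; of other genes, for Ccnd1, Xpo1 and up to 3 called members of each related list. Alternatives were other size factors, dispersion, filters, block and libraries, DESeq2 1.42.0, and leaving out each library. Precision is limited by 2 libraries in most groups.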

Additional observations from a re-analysis of the deposited data

How the results depend on the processing

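Counts below are of the 42 members called. Size factors, non-robust dispersion and filters left the leptomycin B count between 4 and 6, and its median log2 fold change moved between -0.19 and -0.17 over all alternatives with every library. Without a filter, Nup88 and Nup35 were not called (edgeR adjusted p = 0.0713 and 0.0561). Nup35 was also not called with relative log expression factors (edgeR adjusted p = 0.0522). Calls rest on the clone block: with no replicate block there were 0 members called for leptomycin B, tag siRNA in tagged and in untagged clones, pooled cyclin D1 siRNA, HA, Qiagen, Life and SCR against untreated, HA against the other 4 and HA against FLAG, 1 for Nature and for Qiagen against the other 4, and 2 for Nature and for Life against the other 4 (all genes with leptomycin B: 48, beside 1508 with the block). Over all genes, these fits with no replicate block called 12 (SCR against untreated) to 148 (Life against the other 4). With only the libraries of a comparison, member counts moved together with the counts over all genes, given in brackets. They were 18 for leptomycin B (4494), 20 for tag siRNA in tagged clones (3283), 0 for pooled cyclin D1 siRNA (65), 0 for tag siRNA in untagged clones (80), 11 for FLAG (1311), 21 for HA (3959), 3 for Nature (282), 17 for Life (2728), 1 for SCR against untreated (539), 1 for HA (374) and 4 for Nature (1109) against the other 4, and 0 for HA against FLAG (206). DESeq2, with all genes again in brackets, called 9 for leptomycin B (2263), 4 for tag siRNA in tagged clones (1024), 7 for pooled cyclin D1 siRNA (1280), 5 for HA (1139), 10 for Nature (1877), 8 for HA (1415) and 10 for Qiagen (2896) against the other 4, and 5 for HA against FLAG (858). Without a filter there were 0 for SCR against untreated (648) and 0 for tag siRNA in tagged clones (525). SCR against untreated was also 0 with relative log expression factors (782), and HA had 3 among genes of at least 1 CPM (661). With untreated libraries in place of SCR there were 22 for tag siRNA (4921 genes in all) and 21 for pooled cyclin D1 siRNA (3584). Leaving out the 4 libraries over 2% Rn45s, chosen after seeing the data, leaves HA, Nature and Life with 1 library each in the tagged clones. Member counts then fell for tag siRNA in tagged clones, HA and Life, for HA and Life against the other 4, and for HA against FLAG. They rose for Nature. The counts over all genes went the same way in each of these. For pooled cyclin D1 siRNA 6 members were called beside 4, while the count over all genes fell from 815 to 651. Leaving out each library gave 1 to 3 for leptomycin B (1 without untreated clone 12 or leptomycin B clone 14; median log2 fold change -0.23 to -0.14), 0 to 0 for tag siRNA in tagged clones, 0 to 6 for pooled cyclin D1 siRNA, 0 to 1 for tag siRNA in untagged clones, 0 to 1 for HA, 1 to 3 for Qiagen, 4 to 11 for Nature, 2 to 5 for Life, 0 to 0 for SCR against untreated, 0 to 6 for HA, 2 to 13 for Qiagen, 2 to 7 for Nature and 2 to 6 for Life against the other 4, 0 to 3 for HA against FLAG, 18 to 23 for clone 14 against 12 and 9 to 23 for clone 25 against 18; a lone library is then assumed to vary like the other groups. The causes were not tested. Of the alternatives to values of named members, 775 kept direction and side of the threshold, 246 lost and 6 gained the call, and 0 reversed. Nup210 at 11 counts is limited by depth.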
